A study of Rattus norvegicus with 20 samples.

Results

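The subject is Slc29a4 (ENSRNOG00000001115), 1 gene of the 32883 in the expression tables of rat choroid plexus. It was chosen by its TPM (a transcript level corrected for transcript length and scaled to 1 total in every library) in the 12 untreated rats, where every obese rat lay below every lean rat. Its untreated difference is therefore given here as a description without a test, and the question tested is whether the same difference was present in the 8 injected rats, which did not enter that choice. Choroid plexus of the lateral and 4th ventricles was taken from 20 female Zucker rats aged 16 weeks, 1 library per rat. Zucker fa/fa rats lack a working leptin receptor and become obese on normal chow, and their lean counterparts here were heterozygous (+/fa), so no rat was free of the fa allele. The untreated cohort held 6 lean (rats 1 to 6) and 6 obese (rats 7 to 12) animals. The injected cohort held 4 lean control rats given sesame oil alone as vehicle (rats 13 to 16) and 4 obese rats given testosterone propionate in sesame oil, called obese + TT (rats 17 to 20), all injected subcutaneously. No obese rat received vehicle alone and no lean rat received testosterone, so that in the injected cohort obesity and testosterone cannot be told apart.

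Slc29a4 encodes the plasma membrane monoamine transporter, also known as the equilibrative nucleoside transporter ENT4. It is a low-affinity, high-capacity carrier of organic cations driven by the membrane potential, takes up serotonin and dopamine, and carries adenosine better at acidic pH. In choroid plexus, an epithelium folded around a vascular stroma that secretes cerebrospinal fluid and sits between it and the blood, it is known as a route by which monoamines and cationic toxins leave the fluid.

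The position of Slc29a4 was taken from RefSeq (assembly GRCr8, a later build than the Rnor_6.0 used for the expression tables). Among its nearest genes, Tnrc18, Fbxl18 and Actb lie at lower coordinates and Wipi2 at higher ones. Slc29a4 itself lies on the minus strand of chromosome 12. The 250 bases before its start, chr12:16988339-16988588, are shown 5′ to 3′ on the gene's own strand, because a treatment with an androgen is among the conditions and the gene's level follows the cohort. Capitals mark the GC box GGGCGG, the short motif bound by Sp-family factors.
Slc29a4 promoter: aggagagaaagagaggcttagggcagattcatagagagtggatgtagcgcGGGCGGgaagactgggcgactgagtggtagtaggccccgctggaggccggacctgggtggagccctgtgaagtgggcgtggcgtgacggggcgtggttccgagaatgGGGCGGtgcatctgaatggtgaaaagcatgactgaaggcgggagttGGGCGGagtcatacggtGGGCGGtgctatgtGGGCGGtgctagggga
The printed stretch holds 5 GC boxes, and the 300 bases that run 50 bases past the start hold 6, all read on the gene's strand (GGGCGG, with none as CCGCCC). Of the 33469 promoter windows of that length in RefSeq, 33.1% held at least 1 GC box on either strand and 0.831% held 6 or more. The window was 65.7% G and C, against a median of 51.7% over the windows. The hexamer AGAACA to which 1 subunit of the androgen receptor binds, or TGTTCT on the other strand, was not in the window, and it was found in 20.7% of all windows.

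The libraries were first checked against their label. Ttr, the transthyretin gene that choroid plexus epithelium transcribes at very high levels, took 25.8 to 39.3% of the TPM of a library, and the other 8 epithelial markers that could be named (of 10 listed, Ttr included) were above 0 in all 20 libraries. Single libraries lay apart from their groups in some genes. In lean control rat 13 the globin gene Hba-a1 was at 3302.78 TPM against 1213.2 to 1286.82 TPM in the other 3 lean controls, and the endothelial gene Plvap at 10.58 TPM against 1.68 to 5.85 TPM. Slc29a4 itself also lay apart in rat 13, and that value was known when this library was singled out. Otx2, a transcription factor gene of the epithelium, was at 7.85 TPM in untreated obese rat 10 against 67.29 to 85.94 TPM in the other 5 obese rats, and at 200.06 TPM in obese + TT rat 20 against 107.3 to 115.01 TPM in the other 3. Differences of Slc29a4 that rest on rat 13 are given with and without it, while most values of other genes include it.

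In the 6 untreated lean rats Slc29a4 was at 28.54, 38.98, 36.26, 33.16, 32.92 and 32.89 TPM for rats 1 to 6. In the 6 untreated obese rats it was at 27.44, 19.54, 23.05, 25.26, 22.11 and 20.86 TPM for rats 7 to 12. The groups did not overlap, but they came close, since the lowest lean value (rat 1) and the highest obese value (rat 7) were 1.1 TPM apart. The mean level was 33.8 ± 3.54 TPM in lean (SD, n = 6) and 23.0 ± 2.90 TPM in obese rats (SD, n = 6), a ratio of 0.682 and a difference of -0.55 on the log2(TPM + 0.1) scale (SE 0.09). Without rat 10 it was -0.58. As background, 0.244% of the 15176 genes that passed the filter on low values (a mean of 0.1 TPM or more) were lower without overlap in this way, and nothing is read from that share because the gene was selected on this very pattern.

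In the 4 lean control rats Slc29a4 was at 32.17, 65.99, 69.14 and 64.34 TPM for rats 13 to 16. In the 4 obese + TT rats it was at 38.96, 31.58, 40.49 and 31.69 TPM for rats 17 to 20. The non-overlap of the untreated cohort was not present here, because lean control rat 13 lay inside the range of the obese + TT rats while the other 3 lean controls lay above all 4 of them. The plot of Slc29a4 by rat shows rat 13 at the level of the untreated lean rats in TPM. In FPKM rat 13 (30.86) lay below the untreated lean rats (33.64 to 44.77) and within the range of the untreated obese rats (23.14 to 31.82). The other lean controls lay far above every other library on both scales.

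**Figure D1:**
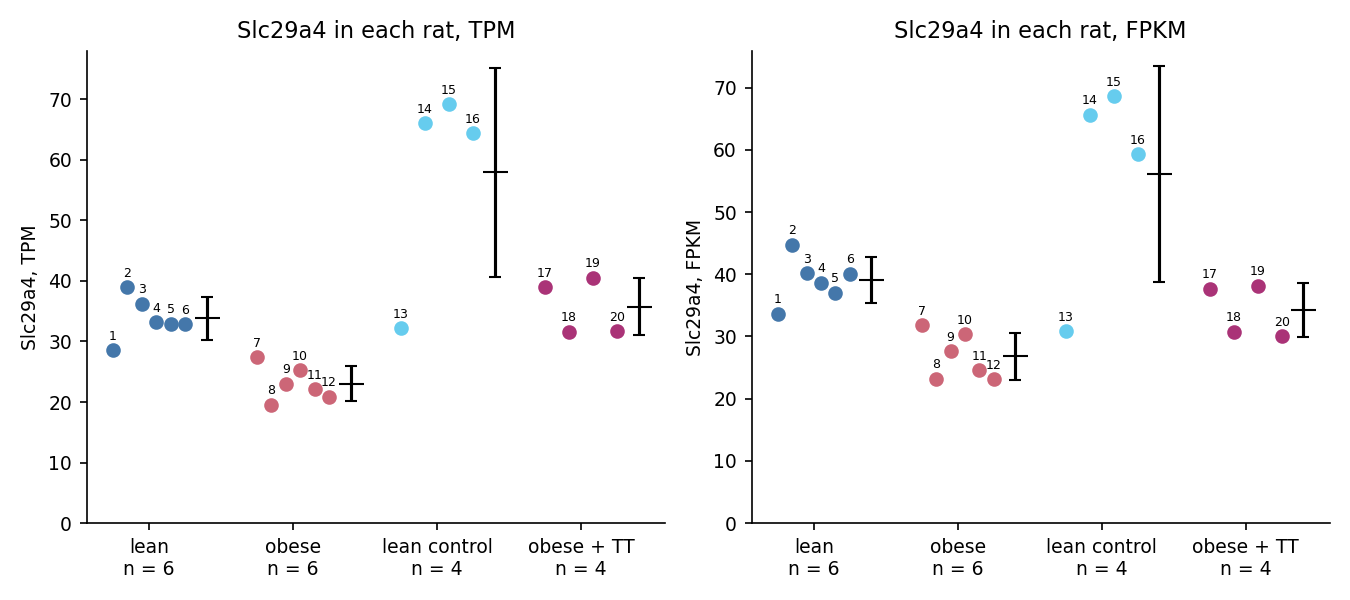
Slc29a4 level of each rat (points, numbered by rat) in the 4 groups, in TPM (left) and in FPKM (right), with the group mean and SD as a black bar. The untreated groups lie 1.1 TPM apart at their closest, and among lean controls rat 13 (32.17 TPM) lies apart from rats 14 to 16 (64.34 to 69.14 TPM).

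The mean level was 57.9 ± 17.3 TPM in lean control (SD, n = 4) and 35.7 ± 4.71 TPM in the obese + TT group (SD, n = 4), a ratio of 0.616. The log2 difference was -0.64 (SE 0.22, 95% confidence interval -1.14 to -0.14), and it did not pass the threshold over all genes (adjusted p = 0.594, limma with Benjamini-Hochberg adjustment, unadjusted p = 0.0169). An exact two-sided permutation test of the 4 against 4 rats gave p = 0.0857, where 0.0286 is the smallest value the design allows. In this comparison limma called 0.0% of 15259 genes (0 genes at adjusted p under 0.05), while 3.19% were lower and 4.25% were higher at an unadjusted p under 0.05. The paper's own test on counts found differentially expressed genes in this and in the untreated comparison. The absence of calls with limma therefore does not mean that no gene differed.

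Without rat 13 the lean control mean was 66.5 ± 2.44 TPM (SD, n = 3) and the ratio 0.537. The groups then lay 23.85 TPM apart. The log2 difference was -0.90 (SE 0.10, 95% confidence interval -1.13 to -0.68), which passed the threshold with limma (adjusted p = 0.0352). The low Slc29a4 value of rat 13 was known when that rat was singled out, so this p is a description and not an independent test. Slc29a4 was then 1 of 15 genes called lower, 0.0985% of 15231 tested, and 4.31% of those genes were lower without overlap. The exact two-sided permutation test of 4 against 3 rats gave p = 0.0571, which is the smallest it can give. Leaving out any of the other 7 rats gave log2 differences from -0.71 to -0.54 and adjusted p from 0.597 to 0.916 (limma). The obese + TT rats were thus lower on average in every one of these fits, and the call rested on whether rat 13 was included. Without rat 20, the library high in Otx2, the difference was -0.59.

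**Figure D2:**
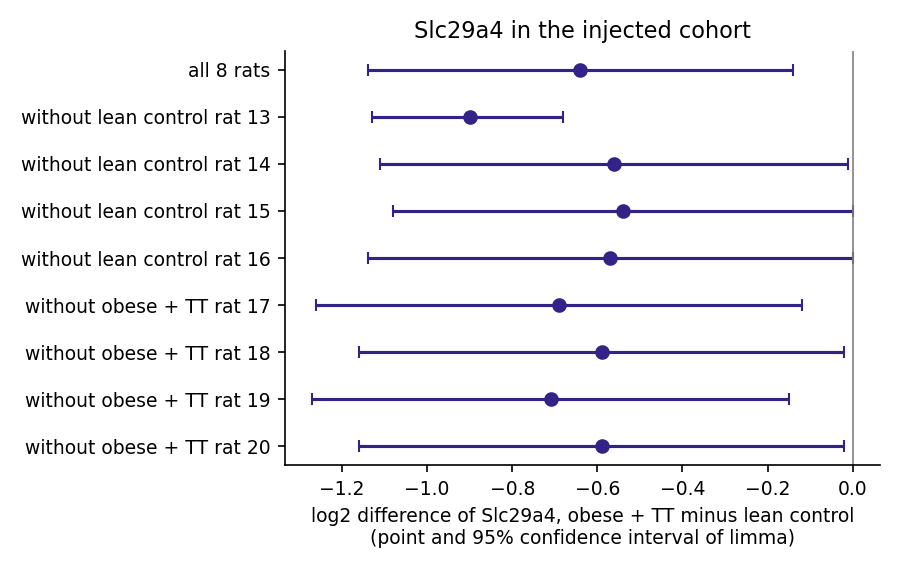
Log2 difference of Slc29a4, obese + TT minus lean control (x axis), with its 95% confidence interval from limma, for all 8 rats and with each rat left out in turn. All points lie below 0, and the interval is narrowest, -1.13 to -0.68, without lean control rat 13.

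In TPM the order of the 4 group means was obese (23.0 TPM), lean (33.8 TPM), obese + TT (35.7 TPM) and lean control (57.9 TPM). The middle of this order depended on the scale. The lean mean was above that of obese + TT rats with FPKM (39.1 and 34.2), TPM without Ttr (51.3 and 49.0) and median-of-ratios scaling (35.9 and 32.4). In TPM, untreated lean and obese + TT rats overlapped (28.54 to 38.98 TPM and 31.58 to 40.49 TPM). Their means in TPM differed by less than the SD of either group. Among all 32883 genes Slc29a4 ranked 2493rd by mean TPM in lean, 3433rd in obese, 1687th in lean control and 2729th in obese + TT rats.

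The level of Slc29a4 also differed between the cohorts. Lean control rats had 1.71 times the mean TPM of untreated lean rats (1.97 times without rat 13), a log2 difference of 0.72 (SE 0.19), and the 2 groups overlapped through rat 13. Obese + TT rats had 1.55 times the mean TPM of untreated obese rats, a log2 difference of 0.63 (SE 0.11), and the groups did not overlap (31.58 to 40.49 TPM and 19.54 to 27.44 TPM). These differences are described without a test because they use the libraries on which the gene was selected. The cohorts differed in injection and, for obese rats, in testosterone, and these and any other difference between the cohorts cannot be told apart. Differences between the cohorts were found all over the transcriptome. Of 15326 genes, 58.2% were called between lean control and lean rats (41.7% higher, 16.5% lower), and of 15389 genes 58.1% were called between obese + TT and obese rats (41.7% higher, 16.4% lower), with 34.1% higher without overlap in the latter. On the FPKM scale the calls between lean control and lean rats were split into 4459 higher and 4458 lower, against 6394 and 2531 on the TPM scale (obese groups 4239 and 4487, against 6418 and 2523). Relative to the mean log2 level of 8 epithelial markers of the same library, described next, most calls turned to lower, with 1866 higher and 8298 lower between the lean groups and 834 and 8842 between the obese groups. With FPKM Slc29a4 differed by 0.46 between the lean groups (0.72 without rat 13) and by 0.35 between the obese groups (log2), the latter with overlap.

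Markers of several cell types moved with the cohort. The TPM of the 8 epithelial markers other than Ttr, of which Enpp2 (autotaxin) was the most abundant, was summed. The sum was 8270 ± 593 in lean, 8130 ± 565 in obese, 12100 ± 641 in lean control and 13100 ± 604 in obese + TT rats (SD here and in what follows, n = 6, 6, 4 and 4). Plvap, the only endothelial marker of 6 that could be named, was at 45.6 ± 4.22 TPM (lean) and 5.25 ± 3.96 TPM (lean control). The mural cell markers Rgs5 and Tagln (2 of 5 named, Rgs5 the more abundant) summed to 155 ± 15.1 TPM (lean) and 9.01 ± 4.15 TPM (lean control). Of the 3 stromal markers of 6 that could be named, Dcn (decorin) was at 92.5 ± 13.0 and 10.9 ± 2.20 TPM and Col1a1 (type I collagen) at 4.92 ± 0.855 and 0.492 ± 0.154 TPM, while Pdgfra was at 25.4 ± 2.99 and 65.1 ± 17.5 TPM. The obese groups showed the same pattern, for example Dcn with 88.6 ± 11.1 TPM (obese) and 9.68 ± 2.97 TPM (obese + TT). In bulk tissue fewer cells of a type and less RNA per cell cannot be told apart. When Slc29a4 was expressed relative to the mean log2 level of the 8 epithelial markers of the same library, the log2 difference was 0.04 (SE 0.19) between lean control and lean rats and -0.19 (SE 0.18) between obese + TT and obese rats. The value near 0 rested on rat 13, without which the lean groups differed by 0.30 (SE 0.09) on this scale, with overlap. On the same scale it was -0.48 (SE 0.14) in the untreated cohort, where the groups then overlapped, and -0.71 (SE 0.23) in the injected cohort (-0.97, SE 0.13, without rat 13). Of the 9 epithelial markers, Ttr included, limma called 8 higher and 0 lower in lean control than in lean rats, against 41.7% and 16.5% of all genes. Ttr was not called there, but it was lower without overlap, as were 1641 of 15326 genes. Its level was 289000 ± 14400 TPM in lean control and 340000 ± 27400 TPM in lean rats. In obese + TT against obese rats limma called 7 higher and 1, Ttr, lower (273000 ± 16200 against 347000 ± 25300 TPM), against 41.7% and 16.4%. Otx2 was not called (adjusted p = 0.063, limma).

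**Figure D3:**
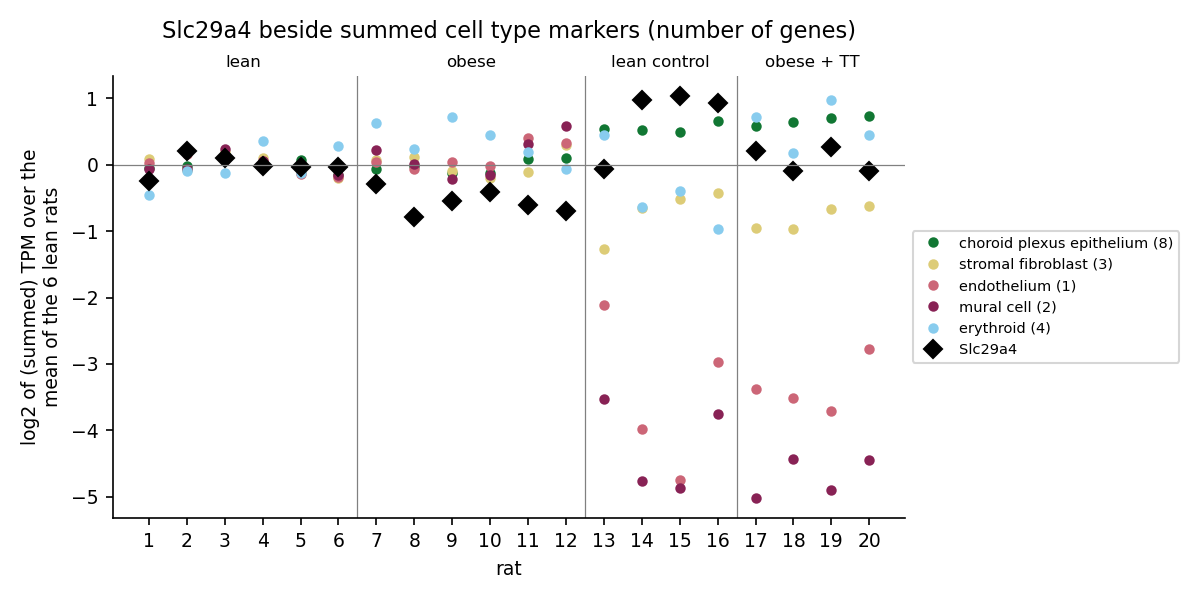
Level of Slc29a4 (black diamonds) and the summed level of 5 sets of cell type markers (coloured points, with the number of genes) in each rat, as log2 of TPM over the mean of the 6 lean rats. The epithelial sum, which leaves out Ttr, is higher and endothelial and mural markers are lower in rats 13 to 20. Rat 13 alone among the lean controls lacks the higher Slc29a4 level.

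Some blood and vessel markers were highest in rat 13 among the lean controls. The 4 erythroid markers (of 5, most abundant Hba-a1) summed to 5767.6 TPM in rat 13 and to 2168.2 to 3233.3 TPM in rats 14 to 16, and to 4799.5 to 8388.2 TPM in the obese + TT rats. Not all 4 were apart, since Hbb was at 1358.88 TPM in rat 13 and at 545.73 to 1470.44 TPM in the other lean controls. Tagln was at 4.29 TPM in rat 13 and 2.53 to 4.03 TPM in rats 14 to 16, and Rgs5 at 9.25 TPM and 1.68 to 8.36 TPM. In the comparison of the injected groups Tagln was lower without overlap in obese + TT rats (background 1.66%), at 1.97 ± 0.43 TPM against 3.50 ± 0.807 TPM in lean control rats (log2 difference -0.79, SE 0.21, unadjusted p = 0.00406, adjusted p = 0.51, limma), in the direction of Slc29a4. Rgs5 overlapped (-0.13, SE 0.50), and the part of mural cell markers in the Slc29a4 difference was not tested. The epithelial sum of rat 13 (12006.0 TPM) lay within the range of the other 3 (11615.9 to 13060.6 TPM). The stromal sum was lowest in rat 13, at 51.1 TPM against 77.7 to 91.0 TPM, in the direction of Slc29a4. Most of that gap was in Pdgfra (39.33 TPM against 69.33 to 77.23 TPM). Dcn in rat 13 (11.42 TPM) was within the range of the other 3 (7.86 to 13.07 TPM). The part of stromal markers in the Slc29a4 level of rat 13 was not tested. The erythroid markers also had higher means in obese and in obese + TT rats, although none passed the test. In untreated rats their sum was 4260 ± 890 TPM (lean) and 5550 ± 1130 TPM (obese), all 4 were higher in obese rats at an unadjusted p under 0.05 with limma (background 5.91%), and their median difference was 0.42 against 0.02 over all genes. In injected rats the sum was 3470 ± 1590 TPM (lean control) and 6490 ± 1550 TPM (obese + TT), 3 of 4 were higher in that way (background 4.25%), and the median was 1.13 against 0.01. limma called none of them, as it called 0.0% of all genes in either cohort, and in the injected rats obesity and testosterone cannot be told apart. The part of these markers in the lean and obese levels of Slc29a4, or in its level in rat 13, was not tested. The astrocyte marker Gja1 (1 of 5 named) was at 1.91 ± 0.593 TPM (lean control) and 3.19 ± 0.19 TPM (obese + TT), higher without overlap in the latter (background 2.37%), opposite to Slc29a4 (log2 difference 0.76, SE 0.22, unadjusted p = 0.00596, adjusted p = 0.519, limma), and its part was not tested. The ependymal marker Dynlrb2 (1 of 5) was at 148 ± 16.0 and 153 ± 4.67 TPM. None of the listed macrophage, neuron or oligodendrocyte markers could be named, and they were not analysed here.

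The genes whose pattern was most like that of Slc29a4 were sought among 12093 others with a mean of at least 1 TPM, by Pearson's r of log2(TPM + 0.1) over the 20 libraries. All of these libraries share the 4 groups and the cohort difference, so r is a description only. The first was Rdh11, a retinol dehydrogenase (r = 0.94). It was followed by Cacna2d2, an auxiliary subunit of voltage-gated calcium channels (r = 0.90), Mmel1, a membrane metalloendopeptidase (r = 0.88), Dnajb11, a co-chaperone of the endoplasmic reticulum (r = 0.88), and Abat, the transaminase that breaks down GABA (r = 0.88). Without rat 13 their r lay between 0.89 and 0.95. Rdh11 ranged from 52.45 to 66.84 TPM in obese and 64.2 to 83.49 TPM in lean rats. In the injected cohort it ranged from 76.29 to 86.94 TPM in obese + TT and 85.92 to 116.92 TPM in lean control rats. This was the order of the groups seen for Slc29a4 in TPM. Cacna2d2 had means of 4.63, 6.52, 6.95 and 12.2 TPM and Abat of 13.9, 18.3, 24.9 and 32.3 TPM in those groups, listed in that order. In rat 13 Cacna2d2 (10.9 TPM) was near the other lean controls (12.07 to 13.27 TPM), whereas Rdh11 (85.92 TPM) was below them (106.1 to 116.92 TPM) and within the range of the obese + TT rats (76.29 to 86.94 TPM). Mmel1 (6.94 TPM), Dnajb11 (64.73 TPM) and Abat (22.86 TPM) were likewise below the other lean controls in rat 13 and within the obese + TT range.

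**Figure D4:**
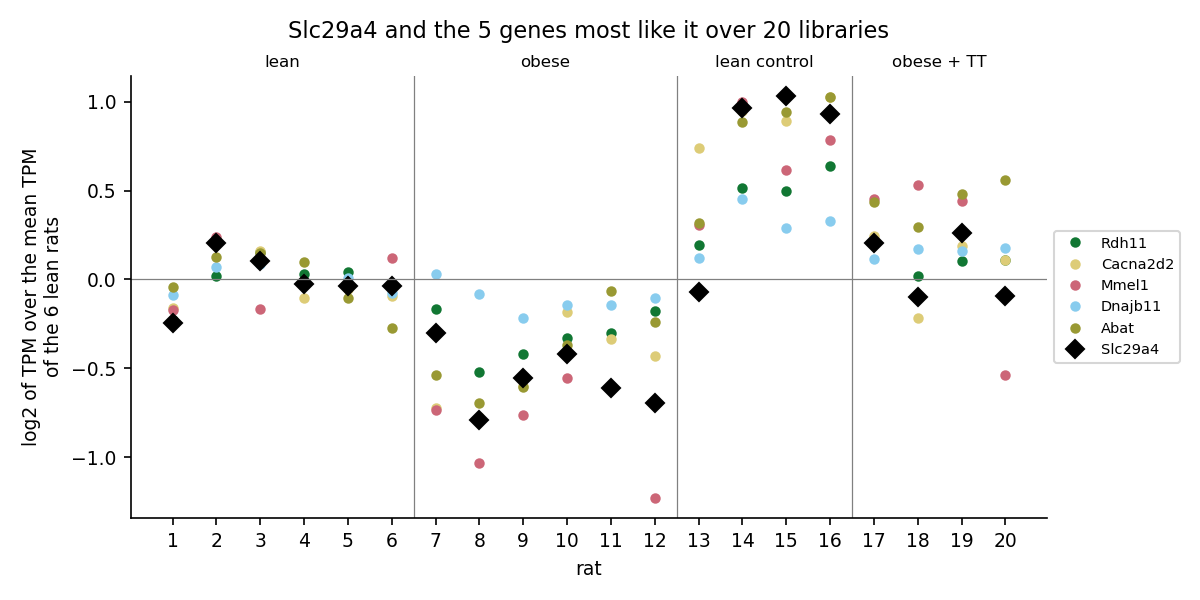
Level of Slc29a4 (black diamonds) and of the 5 genes with the highest r with it over the 20 libraries (coloured points) in each rat, as log2 of TPM over the mean of the 6 lean rats. The genes are lowest in the obese rats and highest in the lean controls. In rat 13 Slc29a4 is near 0 and Cacna2d2 stays high, while Rdh11, Mmel1, Dnajb11 and Abat are below the other lean controls.

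When each group's mean was subtracted first, the highest r were those of Cd9 (0.83), Zfp385a, a zinc finger protein gene (0.80), ENSRNOG00000049952 (0.79), ENSRNOG00000048847 (0.78) and Ppp1r1a, an inhibitor of protein phosphatase (0.76). Rat 13 decided most of these. Without it r was 0.17 for Cd9, 0.31 for ENSRNOG00000049952 and 0.05 for Ppp1r1a, but 0.71 for Zfp385a and 0.77 for ENSRNOG00000048847. Zfp385a was at 39.54 TPM in rat 13 and 51.85 to 57.28 TPM in the other lean controls, low in the same library as Slc29a4.

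Slc29a4 is 1 of 12 plasma membrane transporter and channel genes that the study lists for the untreated comparison, a list chosen on the untreated libraries and thus not independent evidence there. In the injected cohort 11 of the 12 had a lower mean log2 level in obese + TT than in lean control rats, with a median difference of -0.15 against 0.01 over all genes tested. Of the 11 other than Slc29a4, 10 were lower with all rats and without rat 13, and 7 without lean control rat 16. limma called none of the 12 (background 0.0%). At an unadjusted p under 0.05, 3 of the 12, Slc29a4 among them, were lower, against 3.19% of all genes, and 1 was higher, against 4.25%. Without overlap, 2 were lower (background 1.66%) and 1 was higher (background 2.37%). When rat 13 was left out, Slc29a4, Slc6a20 and Kcnk1 were also lower without overlap (background 4.31%). Slc29a4 had the second largest negative difference of the 12. The largest was that of Cacna2d2 at -0.81 (SE 0.12, adjusted p = 0.137, limma), which was lower without overlap in both cohorts, at 10.9 to 13.27 TPM in lean control and 5.60 to 7.72 TPM in obese + TT rats. Without rat 13 it too passed the threshold (-0.86, SE 0.12, adjusted p = 0.0485, limma). Slc6a20, a carrier of proline, differed by -0.34 (SE 0.15, unadjusted p = 0.0426 with limma, adjusted p = 0.668), and P2rx6, a subunit of ATP-gated channels, by -0.12 (SE 0.06) without overlap. Without rat 13 Slc6a20 differed by -0.42 (SE 0.15, unadjusted p = 0.0215, adjusted p = 0.41, limma), and its groups did not overlap. The 1 gene that was higher was Slc4a1, the anion exchanger of red cells (1.37, SE 0.33, adjusted p = 0.429, limma), at under 1 TPM in every library. The remaining 7, Kcnk1, Slc5a6, Slc15a4, Calhm1, Kcnk12, Slc39a5 and Kcnu1, lay between -0.21 and -0.01. Among these 7, Slc15a4, Slc39a5 and Kcnu1 had higher means in untreated obese than in lean rats (differences of 0.41, 0.48 and 0.47 on the log2 scale, none called). In the untreated comparison limma called 0.0% of 15176 genes, and 3.75% were lower and 5.91% higher at an unadjusted p under 0.05.

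**Figure D5:**
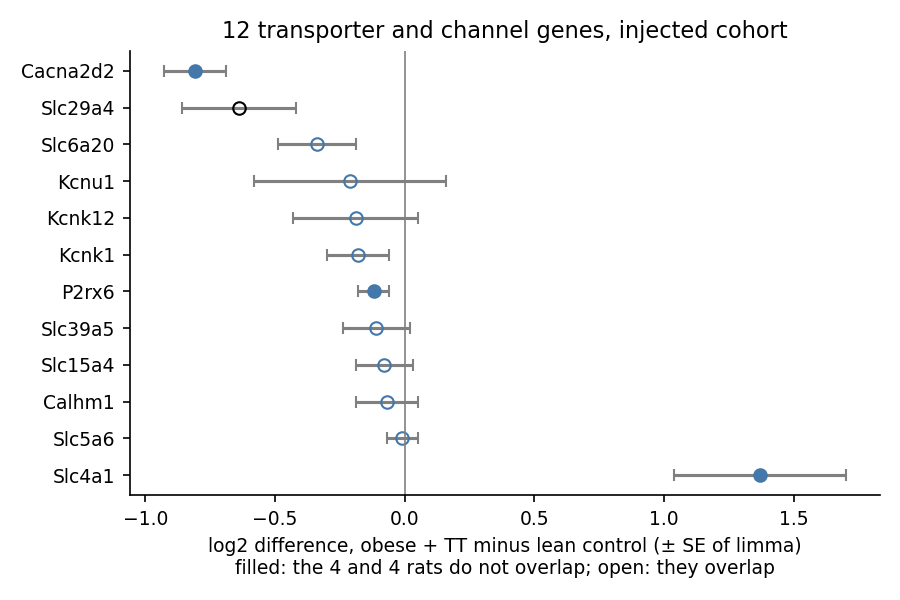
Log2 difference, obese + TT minus lean control (x axis, with the SE from limma), of the 12 transporter and channel genes listed for the untreated comparison. Slc29a4 (black, -0.64) is second to Cacna2d2 (-0.81). With all rats included, the groups of 3 genes (filled points) do not overlap.

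Of the genes that act on the same substrates, few could be named in the tables. Slc29a4 was the only one of 7 nucleoside transporters with a name, and the other 12 monoamine and organic cation transporters listed were not analysed here. Of 11 genes of monoamine synthesis and breakdown, 3 could be named, and limma called none of them and 0.0% of all genes in either cohort. Aldh2, a mitochondrial aldehyde dehydrogenase, was at 202 ± 28.1 TPM (lean control) and 231 ± 3.85 TPM (obese + TT). Its log2 difference was 0.20 (SE 0.09, unadjusted p = 0.0425, adjusted p = 0.668, limma), and its groups overlapped. Without lean control rat 13 it was 0.22 (SE 0.1, unadjusted p = 0.0557, adjusted p = 0.532, limma), still with overlap. The unadjusted p was then no longer under 0.05. Sult1a1, a sulfotransferase that acts on phenols and monoamines, was at 38.3 ± 3.32 TPM (lean control) and 42.1 ± 10.2 TPM (obese + TT) with all rats. Htr2c, the serotonin receptor for which choroid plexus epithelium is known, was the only one of 20 monoamine receptors with a name. It was at 384 ± 38.6 TPM (lean) and 376 ± 63.7 TPM (obese), and at 682 ± 45.6 TPM (lean control) and 700 ± 40.5 TPM (obese + TT), so that it differed between cohorts (adjusted p = 2.92e-06 for the lean and 2.78e-05 for the obese groups, limma) and overlapped between lean and obese rats of either cohort. Of 12 adenosine receptor and purine genes, 2 could be named. Pnp, purine nucleoside phosphorylase, had 126 ± 8.94 TPM (lean) and 139 ± 18.2 TPM (obese), and its log2 difference in the injected cohort was 0.05 (SE 0.08). Adora2b, an adenosine receptor, had 0.34 ± 0.197 TPM (lean control) and 0.393 ± 0.103 TPM (obese + TT). Adora2b was at 0.598 ± 0.204 TPM (lean) and 0.942 ± 0.316 TPM (obese), a log2 difference of 0.57 (unadjusted p = 0.0371, adjusted p = 0.487, limma).

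Of 12 other carriers by which choroid plexus clears organic solutes from the fluid, 6 could be named. The absence of calls among them is no result about these carriers, since limma called 0.0% of all genes in both cohorts. The most abundant was Slc22a17, the lipocalin receptor of the organic cation transporter family, at 1140 ± 81.3 TPM (lean), 1170 ± 90.5 TPM (obese), 1430 ± 144 TPM (lean control) and 1480 ± 94.2 TPM (obese + TT). Slc15a2, a peptide transporter, was the 1 member of the 6 lower at an unadjusted p under 0.05 in the injected cohort, against 3.19% of all genes (-0.52, SE 0.16, unadjusted p = 0.00896, adjusted p = 0.562, limma). It was at 10.31, 16.06, 15.56 and 15.62 TPM in lean control rats 13 to 16 and at 9.89, 8.35, 9.63 and 11.95 TPM in obese + TT rats 17 to 20. As with Slc29a4, rat 13 alone among the lean controls lay within the range of the obese + TT rats. Without that rat the groups of Slc15a2 did not overlap (background 4.31%), and its log2 difference was -0.67 (SE 0.12, adjusted p = 0.102, limma). Slco1c1, a carrier of thyroxine, was lower in untreated obese rats at an unadjusted p under 0.05, as were 3.75% of all genes, with 178 ± 23.8 TPM (lean) and 145 ± 16.9 TPM (obese), a log2 difference of -0.29 (adjusted p = 0.321, limma). In the injected cohort it was at 245 ± 35.0 TPM (lean control) and 226 ± 19.2 TPM (obese + TT). Abcc1, an efflux pump for conjugated anions, was at 16.3 ± 2.06 TPM (lean) and 63.1 ± 4.30 TPM (lean control), and at 17.1 ± 4.50 and 62.4 ± 9.20 TPM in the obese groups, a difference between the cohorts with no difference between lean and obese rats past the test.

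Of the 10 nearest genes in RefSeq, 5 on each side of Slc29a4, only Actb (cytoplasmic actin) could be matched to a named expression value. It was at 313 ± 39.8 TPM (lean), 361 ± 73.0 TPM (obese), 587 ± 56.9 TPM (lean control) and 642 ± 18.3 TPM (obese + TT), with higher means in the injected cohort, as for Slc29a4, and higher means in obese than in lean rats of either cohort, opposite to Slc29a4.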

How the data were processed

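Per the paper, reads were mapped to Rnor_6.0 (Ensembl 104) with STAR 2.7.9a. The submitters' notes also name RSEM 1.3.3. The program behind the values is not given in the sources used here. The authors deposited TPM and FPKM for 32883 genes per rat, with no counts, so mapped depth per library is unknown, no whole reads could be recovered (the fullest bin of low FPKM ratios held at most 6.98% of genes), and limma replaced their count test. FPKM is TPM times 1 factor per library. No pair of the 20 libraries was a duplicate (at most 0.475% identical values).

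limma 3.58.1 (R 4.3.3, trend, not robust) was run on log2(TPM + 0.1) with genes of mean at least 0.1 TPM, 2 groups per fit, Benjamini-Hochberg adjustment and a threshold of 0.05. Fold changes on this scale understate changes of low genes. Exact permutation tests used scipy 1.17.1. Symbols were taken for 2616 genes from the study's supplementary gene sheets, shortened here, and its lists of called genes, so named genes are mostly abundant ones or ones the study called, not a sample of all genes.

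Gene, lists and tests were chosen with earlier results of these data known. Named genes are list members that are most abundant or at unadjusted p under 0.05, 5 genes most like Slc29a4 by each measure, and 5 neighbours per side. Members of short lists were added after their values were seen. Alternatives were pseudocount, filter, scale, fit and each rat left out. Rats are separate animals, and which were sequenced together is not given. The values of 1 list member are not reported here.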

Additional observations from a re-analysis of the deposited data

Results flagged for a closer look

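In 50 named genes and 4 groups, 14 of 200 groups held a rat whose gap to the nearest other exceeded Dixon's critical value, where chance would give about 10.0. Slc29a4 itself was among them, at 32.17 TPM in lean control rat 13 against 64.34 to 69.14 TPM in the other 3. Rat 13 also lay apart for Cd9 (12.74 TPM against 445.53 to 469.56 TPM), Hba-a1 (3302.78 TPM against 1213.2 to 1286.82 TPM), Hba-a2 (1105.64 TPM against 409.15 to 495.78 TPM) and Slc15a2 (10.31 TPM against 15.56 to 16.06 TPM). The named genes include Slc29a4 and 5 genes chosen for following it within groups, Cd9 among them, so that some flags in rat 13 were fixed by the choice of genes.

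Lean control rat 15 was low for Folr1 (1245.0 TPM against 1379.86 to 1400.2 TPM) and rat 16 high for Kcnk12 (3.48 TPM against 1.75 to 2.02 TPM). In obese + TT rat 20, Otx2 was high (200.06 TPM against 107.3 to 115.01 TPM), Col1a1 high (1.47 TPM against 0.53 to 0.61 TPM) and Mmel1 low (3.88 TPM against 7.62 to 8.12 TPM). Ppp1r1a was low in obese + TT rat 17 (126.21 TPM against 176.94 to 186.72 TPM). In untreated obese rat 10, Otx2 (7.85 TPM against 67.29 to 85.94 TPM) and Folr1 (970.43 TPM against 1067.23 to 1111.78 TPM) were low, and in obese rat 11 Cd9 was low (239.17 TPM against 418.92 to 492.77 TPM).

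The difference between the contrast of obese + TT with lean control and that of obese with lean was tested with limma in 1 fit of the 20 libraries. None of the 49 named genes other than Slc29a4 passed (smallest adjusted p = 0.248), and 0 of 15405 genes did, with 1288 at an unadjusted p under 0.05.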

How the results depend on the processing

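The injected difference of Slc29a4 kept its direction in all 18 alternatives, from -0.90 to -0.54 (log2) with a rat left out. It passed the threshold in 1 of them, without rat 13 (adjusted p = 0.0352, limma), and had adjusted p from 0.234 to 0.916 in the others. Without rat 13 it also passed on the other scales, chosen after seeing the data: -0.92 with FPKM, -0.93 without Ttr, -0.91 with median-of-ratios scaling, and -0.97 or, without Otx2, -0.96 relative to epithelial markers (adjusted p from 0.0236 to 0.0393, limma). The untreated difference lay between -0.61 and -0.51 with a rat left out. Between obese + TT and obese rats it was 0.35 with FPKM, 0.41 with median-of-ratios scaling, and -0.19 or, without Otx2, -0.12 relative to epithelial markers, so its direction turned on that scale. Between lean control and lean rats it was 0.04 or 0.06 relative to those markers, and 0.30 or 0.32 without rat 13. The median of all genes between lean control and lean rats was 0.24 with TPM and -0.0009 with FPKM. Genes called in the untreated comparison were 0, but 1 with FPKM, 1 with median-of-ratios scaling, 3 with all 4 groups in 1 fit, 2 relative to epithelial markers without Otx2 and 0 to 1 with a rat left out. In the injected comparison they were 0, but 6 with all 4 groups in 1 fit and 0 to 25 with a rat left out, 25 without rat 13. Total calls between cohorts stayed within 1.5 times, but their direction did not: relative to epithelial markers 1866 were higher and 8298 lower between the lean groups (1996 and 8082 without Otx2), and 834 and 8842 between the obese groups (1324 and 8808). No paired analysis was possible because the groups share no replicate number. Mapped depth per library is unknown, so no counting interval is given.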
